A study of Rattus norvegicus with 16 samples.

Results

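Pdk1, Pdk2, Pdk4, Pdha1, Pdhb, Pc and Ucp2 encode proteins that set the fate of pyruvate at the mitochondrion and that let protons leak back across its inner membrane. They were taken by symbol, as every probe set that the array's annotation gives to 1 of these genes. That gave 10 probe sets for 7 genes, out of 10412 genes named on the array. The samples were rat pancreatic islets, infected with an adenovirus at 50 particles per cell for 32 h and then kept for 16 h in GW347845, a synthetic PPARγ agonist, or in its vehicle. In the islets with the PPARγ virus and GW347845 at 200 nM there were 4 arrays, and in those with the PPARγ virus and 0.004% DMSO as vehicle there were 4. The null adenovirus gave 3 arrays with GW347845 at 200 nM and 3 with 0.004% DMSO. Every group was infected, so no comparison here involves uninfected islets. A further array, null virus replicate 2, stood with identical values under both null virus labels and was left out. The labels do not say whether replicate numbers stand for separate islet preparations, so p-values measure the spread between these samples, which may be technical.

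Array medians lay between 56.4 and 67.5 on a linear intensity scale that was scaled to a trimmed mean of 150.0 on each array. Pparg itself read 4593 to 5966 in PPARγ virus islets with compound, 4939 to 6199 in PPARγ virus islets with vehicle, 25.6 to 51.4 in null virus islets with compound and 27.7 to 39.1 in null virus islets with vehicle. All 6 beta cell markers on the array were above the filter for testing. The summed intensity of 5 markers of the other islet endocrine cells, glucagon among them, ran from 497 to 8971 in PPARγ virus islets with compound and from 996 to 9852 in those with vehicle. It ran from 5405 to 7465 in null virus islets with compound and from 4618 to 9208 in those with vehicle. Replicates 2 and 4 of both PPARγ virus groups carried the low sums, and the member values are set against them below.

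Pyruvate enters the citrate cycle by a pair of routes. The pyruvate dehydrogenase complex oxidises it to acetyl-CoA, and pyruvate carboxylase adds carbon dioxide to make oxaloacetate, a route known for its high share in beta cells. Pyruvate dehydrogenase kinases switch the complex off by phosphorylating its E1 alpha subunit, and Pdk4 is known in muscle, liver and fat as a gene that responds to fasting, fatty acids and PPAR ligands. Uncoupling protein 2 is a carrier of the inner mitochondrial membrane that has been studied in beta cells as a brake on glucose-stimulated insulin secretion.

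The promoters of the 3 kinase genes are shown because Pdk4 and 1 probe set of Pdk1 had the largest virus effects in compound among the members (0.83 and 0.62, beside 0.60 for Pc, whose promoter was not in the table used), and Pdk2 was too low to test. Each sequence covers 250 bases before the annotated start, 5′ to 3′ on the gene's own strand, from RefSeq on GRCr8. Capitals mark the GC box (GGGCGG) and the CCAAT box (CCAAT), each searched on both strands, so that ATTGG is the CCAAT box on the opposite strand.
Pdk4 (chr4:34568330-34568579, minus strand): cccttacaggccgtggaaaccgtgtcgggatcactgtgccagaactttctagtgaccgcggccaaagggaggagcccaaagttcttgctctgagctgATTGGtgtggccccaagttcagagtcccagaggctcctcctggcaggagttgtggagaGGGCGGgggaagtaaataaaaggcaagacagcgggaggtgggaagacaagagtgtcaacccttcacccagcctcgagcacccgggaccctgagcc
Pdk1 (chr3:77113264-77113513, plus strand): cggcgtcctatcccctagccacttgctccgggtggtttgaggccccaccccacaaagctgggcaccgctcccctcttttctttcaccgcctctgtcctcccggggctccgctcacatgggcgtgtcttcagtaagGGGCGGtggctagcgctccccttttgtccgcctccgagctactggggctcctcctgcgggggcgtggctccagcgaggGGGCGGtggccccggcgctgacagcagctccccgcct
Pdk2 (chr10:80483913-80484162, minus strand): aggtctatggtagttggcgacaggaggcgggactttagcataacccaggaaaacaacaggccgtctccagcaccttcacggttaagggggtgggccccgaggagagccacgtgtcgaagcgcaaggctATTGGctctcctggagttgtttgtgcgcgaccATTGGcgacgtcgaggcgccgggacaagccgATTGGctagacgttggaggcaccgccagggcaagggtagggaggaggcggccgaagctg

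Pdk4 held 1 GC box and 1 CCAAT box, Pdk1 held 2 GC boxes and Pdk2 held 3 CCAAT boxes. Among 33469 rat promoters of the same length, 30.5% held a GC box and 34% a CCAAT box. The nuclear receptor hexamer AGGTCA was in none of the 6 member promoters that the RefSeq table held, and in 14.1% of all promoters. Its direct repeat with 1 base between, which contains the hexamer, was in none of the 6 and in 0.0508% of all. The E box CACGTG was in the windows of Pdk2 and Pdhb and in 5.59% of all promoters. A match is a run of letters, and its absence from a window of 250 bases says nothing about the rest of the gene.

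Pdk4, the kinase gene tied to fatty acid use, had its highest group mean where receptor and agonist were both present. Its probe set, designed on NM_053551, read 74.2, 49.8, 64.0 and 53.2 in PPARγ virus islets with compound (replicates 1 to 4). It read 50.5, 38.8, 55.6 and 42.9 in PPARγ virus islets with vehicle. The null virus arrays read 34.1, 32.9 and 27.9 with compound and 41.0, 38.7 and 44.6 with vehicle (replicates 1, 3 and 4). All 4 PPARγ virus compound arrays therefore lay above all 6 null virus arrays, while the PPARγ virus vehicle arrays overlapped with null virus vehicle. The PPARγ virus groups with compound and with vehicle also overlapped with each other. The group means were 60.3 ± 11.1 (SD, n = 4) for PPARγ virus with compound, 46.95 ± 7.53 (n = 4) for PPARγ virus with vehicle, 31.6 ± 3.29 (n = 3) for null virus with compound and 41.4 ± 2.97 (n = 3) for null virus with vehicle. The signal was low: probe sets were tested when they passed an intensity of 39.3 in at least 4 arrays. Pdk4 passed that limit in 4 of 4, 3 of 4, 0 of 3 and 2 of 3 arrays of these groups, so it entered the test through the groups where it was high.

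**Figure D1:**
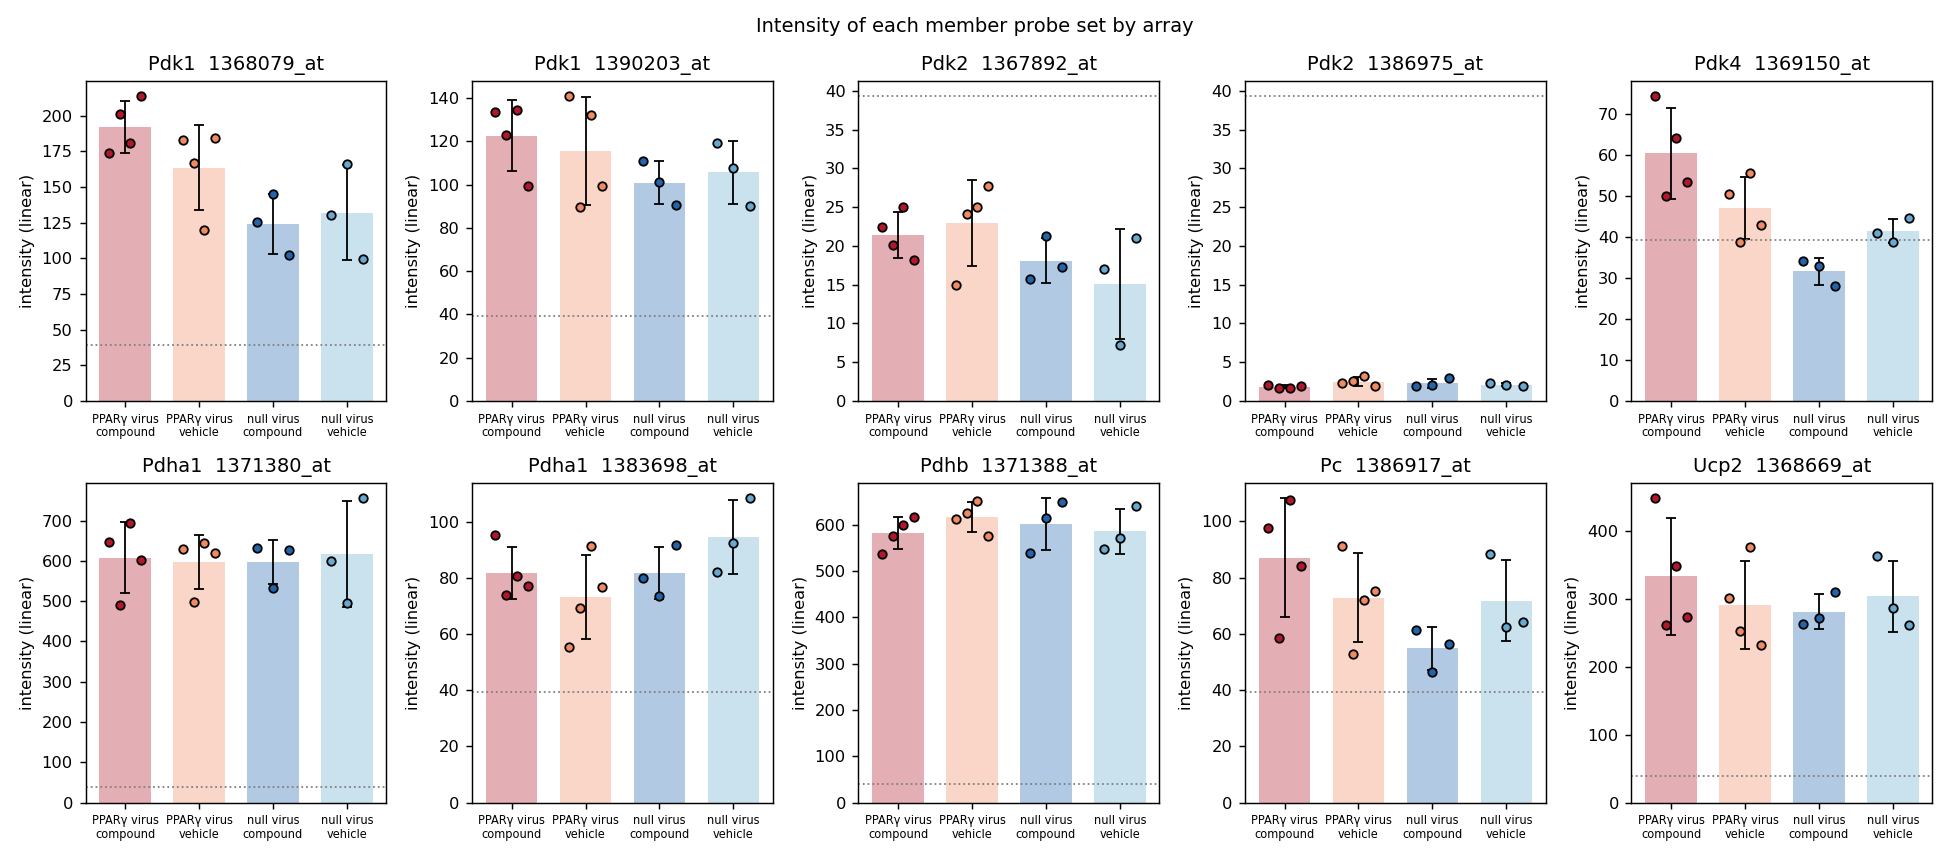
Linear intensity of the 10 member probe sets, with a panel each and its own axis from 0; points are arrays, bars are group means with SD (4, 4, 3 and 3 arrays from left to right), and the dotted line is the filter at 39.3. The 4 Pdk4 readings in PPARγ virus islets with compound run from 49.8 to 74.2, above the 27.9 to 44.6 of the null virus arrays, and both Pdk2 panels lie under the filter.

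Comparing the viruses in the presence of the agonist, Pdk4 was 1.78-fold higher with the PPARγ virus (log2 change 0.83 ± 0.17 SE, 95% confidence interval 0.46 to 1.20, limma adjusted p = 0.0389). All 4 PPARγ virus arrays lay above the 3 null virus arrays. Those null virus arrays with compound had the lowest Pdk4 group mean, and 0 of 3 passed the filter. Compound minus vehicle under the null virus was -0.35 ± 0.18 and did not pass, and this fall enters the 0.83. Changes were fitted on log2(intensity + 4.60), which understates those of low genes. Of the 8 member probe sets tested, 1 passed an adjusted p of 0.05 (Pdk4), beside 0.705% of all 10078 probe sets (0.635% higher). In the fits that left out 1 array, Pdk4 was called in 3 of 14: those without PPARγ virus vehicle replicate 2 (adjusted p = 0.0394) or 3 (0.0382) or PPARγ virus compound replicate 2 (0.0347). Without each of the other arrays it was not called. The adjusted p was 0.0584, 0.0593 and 0.0537 without null virus vehicle replicate 1, 3 and 4, and 0.0955, 0.12 and 0.204 without null virus compound replicate 1, 3 and 4. It was 0.0503 and 0.0507 without PPARγ virus vehicle replicate 1 and 4, and 0.121, 0.119 and 0.068 without PPARγ virus compound replicate 1, 3 and 4. The log2 change in all 14 fits stayed between 0.73 and 0.91.

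In vehicle, the PPARγ virus left Pdk4 close to the null virus reading (0.15 ± 0.17, limma adjusted p = 1, interval -0.21 to 0.52). The combined comparison set receptor plus compound against neither, and gave 0.48 ± 0.17 (limma adjusted p = 0.365), with the 4 arrays above the 3 but the test not passed. Averaged over vehicle and compound, the virus effect was 0.49 ± 0.12 (limma adjusted p = 0.0621). That fit treats compound and vehicle arrays of the same number as independent, although they pair within each virus. With the replicate number as a random block within each virus, the adjusted p in limma was 0.362.

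Pdk1, a kinase gene known for its response to low oxygen, was read by 2 probe sets that did not move alike. The probe set designed on NM_053826 read 174, 201, 181 and 213.7 in PPARγ virus islets with compound and 183.3, 166.8, 120.2 and 184.6 in those with vehicle. In null virus islets it read 125.3, 144.9 and 102.5 with compound and 130.4, 165.9 and 99.4 with vehicle. The 4 compound arrays with PPARγ virus stood above all 6 null virus arrays, and the vehicle arrays of the PPARγ virus overlapped with them. Its mean was 192 ± 18.2 (SD, n = 4) with PPARγ virus and compound, against 124 ± 21.2 (n = 3) with null virus and compound. That is a log2 change of 0.62 ± 0.19 with an interval of 0.23 to 1.02, and it did not pass the test (limma adjusted p = 0.202). Averaged over vehicle and compound the virus effect was 0.47 ± 0.13 (limma adjusted p = 0.107), and it passed in 1 of the 14 fits that left out an array, the 1 without PPARγ virus vehicle replicate 3 (0.54, adjusted p = 0.046). With the random block within each virus, the adjusted p of this averaged effect in limma was 0.423.

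The second Pdk1 probe set, which was designed on the expressed sequence tag AI411149, read 99.3 to 134.5 in PPARγ virus islets with compound and 89.6 to 140.8 in those with vehicle. The null virus ranges were 90.7 to 110.7 with compound and 90.1 to 119.1 with vehicle, so all 4 groups overlapped. Its virus effect in compound was 0.26 ± 0.17 (limma adjusted p = 0.725). Across the 14 arrays the 2 Pdk1 probe sets had a Pearson r of 0.329, so the no-overlap pattern of Pdk1 rests on 1 probe set.

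Pdk2, the kinase gene with the widest tissue distribution, could not be tested. The brighter of its 2 probe sets read 18.2 to 25 in PPARγ virus islets with compound, 14.9 to 27.7 in those with vehicle, 15.7 to 21.3 in null virus islets with compound and 7.2 to 21 in those with vehicle. The other read 1.7 to 3.2 over all 14 arrays. Neither passed the filter in any array, so these arrays give no usable measure of it.

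For the E1 component of pyruvate dehydrogenase, the part that the kinases act on, the brighter Pdha1 probe set and Pdhb showed no difference that passed, and their arrays overlapped in every comparison of groups. Pdha1, the E1 alpha subunit that carries the regulated serines, averaged 608 ± 87.6 (SD, n = 4) in PPARγ virus islets with compound and 598 ± 67.7 (n = 4) in those with vehicle on its brighter probe set (AI411413). The null virus means were 597 ± 55.8 (n = 3) with compound and 617 ± 132 (n = 3) with vehicle. In compound, the virus effect was 0.02 ± 0.15, with an interval of -0.31 to 0.35 (limma adjusted p = 0.987). Pdhb, the E1 beta subunit, ranged from 535.7 to 615.3 in PPARγ virus islets with compound, 574.2 to 651.5 in those with vehicle, 538.8 to 649 in null virus islets with compound and 546.5 to 640 in those with vehicle. The interval of its virus effect in compound was the narrowest of the members there, -0.26 to 0.17 on the log2 scale (limma adjusted p = 0.95).

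The second Pdha1 probe set (BF561717) ran the other way in vehicle. It read 55.3, 69.4, 91.3 and 76.7 in PPARγ virus islets with vehicle, against 82.2, 92.5 and 108.4 in null virus islets with vehicle, and the groups overlapped at the upper end. The log2 change was -0.36 ± 0.16, with an unadjusted p of 0.0437 in limma and an adjusted p of 1. It was the 1 member probe set below an unadjusted p of 0.05 in that comparison, beside 4.43% of all. There limma called 0 of 8 members, beside 0.0397% of all probe sets. No member had arrays that failed to overlap there, beside 2.45% of all that were higher and 2.17% that were lower. Between the 2 Pdha1 probe sets the Pearson r across 14 arrays was 0.383.

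Pc, pyruvate carboxylase, read 97.8, 58.7, 107.7 and 84.1 in PPARγ virus islets with compound and 91.3, 52.7, 71.9 and 75.4 in those with vehicle. It read 61.5, 46.5 and 56.5 in null virus islets with compound and 88.3, 62.6 and 64.3 in those with vehicle. The means were 87.1 ± 21.2 (SD, n = 4), 72.8 ± 15.8 (n = 4), 54.8 ± 7.64 (n = 3) and 71.7 ± 14.4 (n = 3) in that order of groups. Null virus islets with compound had the lowest mean and the single lowest array, and PPARγ virus replicate 2 was the lowest array of both PPARγ virus groups, within the range of null virus with compound. The virus effect in compound was 0.60 ± 0.21 (limma adjusted p = 0.343) and the arrays overlapped through that replicate. Without null virus compound replicate 3 (46.5), the array with the highest Gapdh 3 prime to 5 prime ratio, it was 0.50 (limma adjusted p = 0.668). In vehicle it was 0.01 ± 0.21 (limma adjusted p = 1).

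Ucp2, the uncoupling protein gene, read 448.3, 261.6, 348.8 and 272.6 in PPARγ virus islets with compound and 301.6, 252.1, 376.6 and 231.5 in those with vehicle. In null virus islets it read 262.2, 271.4 and 309.9 with compound and 362.6, 286.4 and 261.2 with vehicle. All 4 groups overlapped, and the highest reading, 448.3, was that of a single array. The virus effect in compound was 0.21 ± 0.20 (interval -0.21 to 0.63, limma adjusted p = 0.851) and in vehicle -0.07 ± 0.20 (-0.50 to 0.35, limma adjusted p = 1).

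**Figure D2:**
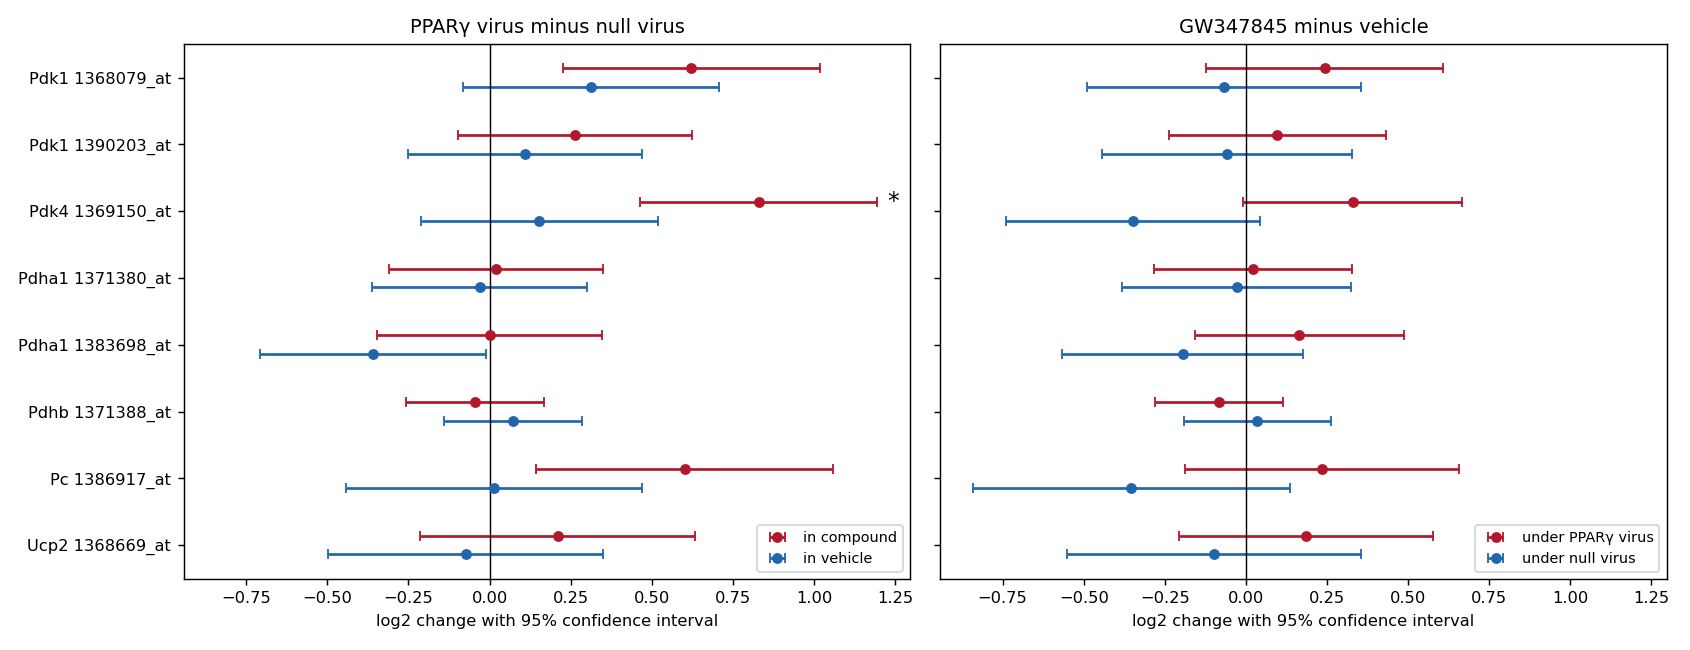
Log2 change of each tested member probe set with its 95% confidence interval, for PPARγ virus minus null virus (left) and GW347845 minus vehicle (right); the asterisk marks an adjusted p under 0.05 in limma. Pdk4 with compound (0.83, left, red) is the only marked change, and the 2 Pdk1 probe sets sit at 0.62 and 0.26.

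For the compound itself, no member passed under either virus. Under the PPARγ virus the largest change was that of Pdk4 (0.33 ± 0.16, limma adjusted p = 1, unadjusted p = 0.0563). There limma called 0 of 8 members, beside 0.0595% of all probe sets, and 0 of 8 had an unadjusted p under 0.05, beside 2.93% of all. Under the null virus Pdk4 stood at -0.35 ± 0.18 and Pc at -0.35 ± 0.23 (limma adjusted p = 1 for each). Limma called 0 of 8 there and 0% of all probe sets, with 95 probe sets (0.943%) and no member at an unadjusted p under 0.05. For Pdk4 and Pc, 2 of 8 member probe sets, all 3 null virus arrays with compound were below all 3 with vehicle, beside 2.53% of all probe sets. Averaged over both viruses, the compound effect on every tested member lay between -0.06 and 0.09, with 0 of 8 called beside 0.0198% of all and 0 of 8 at an unadjusted p under 0.05, beside 1.73% of all.

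Replicate numbers paired vehicle and compound arrays within each virus, and in 2 genes the differences of the pairs had opposite signs under the 2 viruses. Pdk4 was higher with compound in 4 of 4 PPARγ virus pairs, by 0.52, 0.33, 0.19 and 0.28 on the log2 scale, and lower in 3 of 3 null virus pairs, at -0.24, -0.21 and -0.60. Pc was higher with compound in 4 of 4 PPARγ virus pairs, by 0.09, 0.14, 0.55 and 0.15, and lower in 3 of 3 null virus pairs, at -0.49, -0.40 and -0.17. Such a pattern, higher in every PPARγ virus pair and lower in every null virus pair, occurred in 77 of 10078 probe sets (0.764%), and 2 of 8 member probe sets had it. Over pairs, the compound changes of Pdk4 averaged 0.33 ± 0.14 (SD, n = 4) under the PPARγ virus against -0.35 ± 0.22 (n = 3) under the null virus. Those of Pc averaged 0.24 ± 0.21 against -0.35 ± 0.16. These 2 genes are singled out for that pattern, so the means describe it and do not test it. As an interaction in limma, the difference was 0.68 ± 0.24 for Pdk4 (unadjusted p = 0.0139, adjusted p = 1) and 0.59 ± 0.30 for Pc (unadjusted p = 0.0711, adjusted p = 1). No member and no other probe set passed that test, with 143 probe sets (1.42%), Pdk4 alone among the members, at an unadjusted p under 0.05. With the replicate number as a block within each virus, the adjusted p was 0.642 for both genes.

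**Figure D3:**
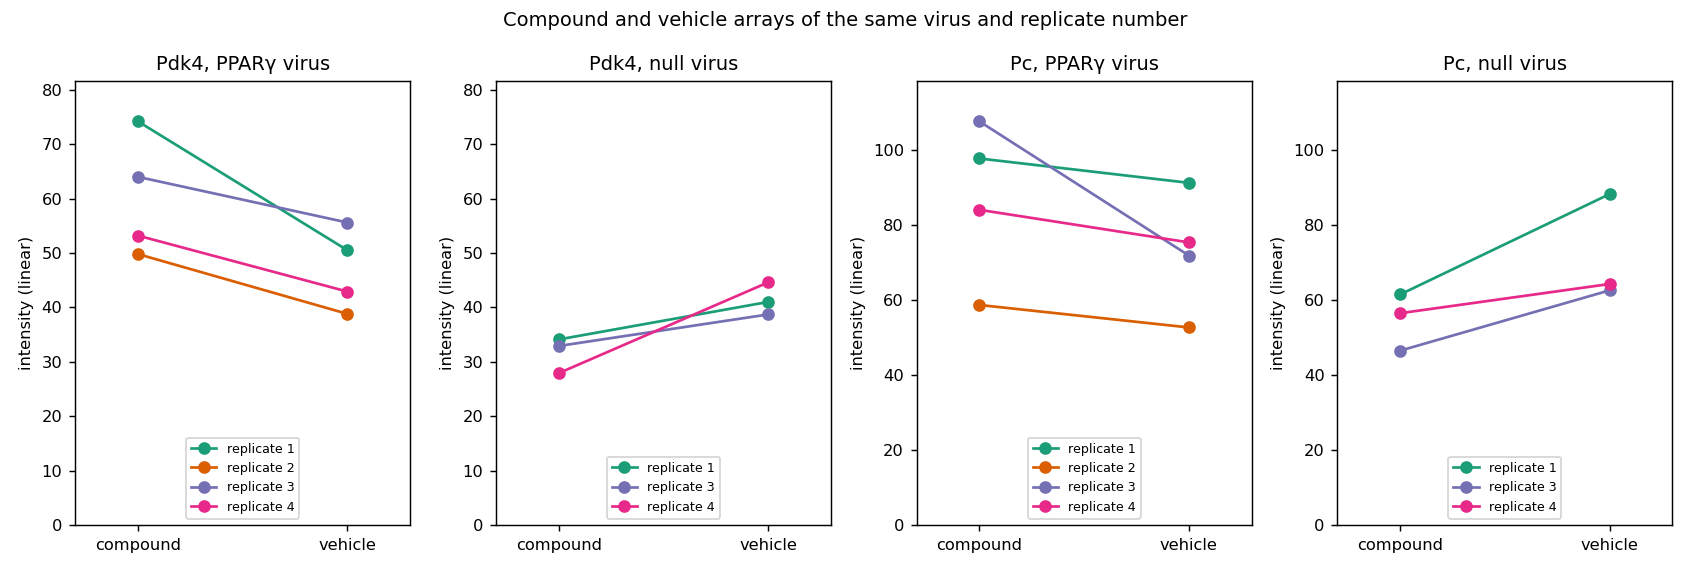
Linear intensity of Pdk4 and Pc in compound and vehicle arrays joined by virus and replicate number, with axes from 0. Lines fall from compound to vehicle in all 4 PPARγ virus pairs and climb in all 3 null virus pairs, for both genes.

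In the combined comparison limma called 0 of 8 members, beside 0.665% of all probe sets, with Pdk1 (NM_053826) and Pdk4 at an unadjusted p under 0.05, as 8.48% of all were. These same 2 probe sets of 8 had no overlap in the higher direction, beside 4.06% of all. In the virus effect in compound, the share with no overlap was again those 2 of 8, beside 4.56% of all. Averaged over vehicle and compound, the virus effect called 0 of 8, beside 1.53% of all, again with Pdk1 (NM_053826) and Pdk4 at an unadjusted p under 0.05, as 12.0% of all were. The comparisons share arrays, so these counts are not separate evidence.

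Within the PPARγ virus groups, several members, Pdk4 among them, were higher on the arrays with more non-beta endocrine RNA. Within each PPARγ virus group, replicates 1 and 3, whose summed marker intensity ran from 8418 to 9852, read higher in Pdk4 than replicates 2 and 4, whose sums ran from 497 to 2429. For compound the Pdk4 readings were 74.2 and 64.0 in replicates 1 and 3, and 49.8 and 53.2 in replicates 2 and 4. For vehicle they were 50.5 and 55.6 in replicates 1 and 3, and 38.8 and 42.9 in replicates 2 and 4. Ucp2, the brighter Pdha1 probe set (AI411413) and the AI411149 probe set of Pdk1 had that order in both groups too, so it was not particular to Pdk4. The NM_053826 probe set of Pdk1 and the Pdhb probe set had it in neither group. Pc and the BF561717 probe set of Pdha1 showed that order with compound but not with vehicle. With vehicle, Pc replicate 4 (75.4) was above replicate 3 (71.9). On BF561717, replicate 1 with vehicle (55.3) was below replicates 2 and 4 (69.4 and 76.7). Fewer cells of a type and less RNA per cell cannot be told apart in whole islets. With the log2 summed marker intensity as a covariate, the virus effect in compound was 0.95 for Pdk4 (limma adjusted p = 0.0027) and 0.77 for Pc (adjusted p = 0.0272). Leaving replicate 2 out of both PPARγ virus groups gave 0.91 for Pdk4 (adjusted p = 0.0362) and 0.77 for Pc, which did not pass (adjusted p = 0.0763). Leaving out replicates 2 and 4 gave 1.03 for Pdk4 (adjusted p = 0.024) and 0.86 for Pc, which did not pass (adjusted p = 0.0733). These fits were added after the data had been seen.

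Markers of other cell types were read beside these calls. Of 7 tested duct markers, 1, the keratin gene Krt19, was higher with the PPARγ virus in compound, while the summed duct intensity was 6296 to 7099 in PPARγ virus islets with compound and 6092 to 6932 in null virus islets with compound. The 3 adipocyte markers on the array, of 6 listed, all lay under the filter. Their sum was 44.3 to 52 in PPARγ virus islets with compound and 29.5 to 40.7 in null virus islets with compound, so the groups did not overlap. In the virus effect averaged over vehicle and compound, 1 of 7 duct markers was higher (Krt19) and 1 of 6 beta cell markers was lower, the transcription factor gene Pdx1. That fit, which treats paired arrays as independent, called 1.53% of all probe sets. With the random block within each virus the share was 0.496%. Krt19 was also the 1 duct marker called higher in the combined effect. The summed beta cell markers were 12708 to 17808 in PPARγ virus islets with compound and 13916 to 17110 in those with vehicle, against 15768 to 16891 in null virus islets with compound and 15188 to 20089 in those with vehicle. The part of any of these in the Pdk4 and Slc16a7 results was not tested. The 3 prime to 5 prime ratio of Gapdh, a sign of RNA quality, was 18.9 on null virus compound replicate 3, against 8.36 to 12.6 on the other 13 arrays. Without that array Pdk4 was at 0.86 in the virus effect in compound, with an adjusted p of 0.12 in limma. The interaction was then 0.70 for Pdk4 and 0.48 for Pc (limma adjusted p = 1 for each). Among 15 exact permutation tests between groups of array medians and of the Gapdh and beta-actin ratios, the lowest p was 0.2. The smallest p that such a test could give was 0.0571 for each comparison of a PPARγ virus group with a null virus group. It was 0.1 for compound against vehicle under the null virus, so none of these tests could reach 0.05. Only compound against vehicle under the PPARγ virus, with a smallest possible p of 0.0286, could. No conclusion on RNA quality is therefore drawn from these tests.

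**Figure D4:**
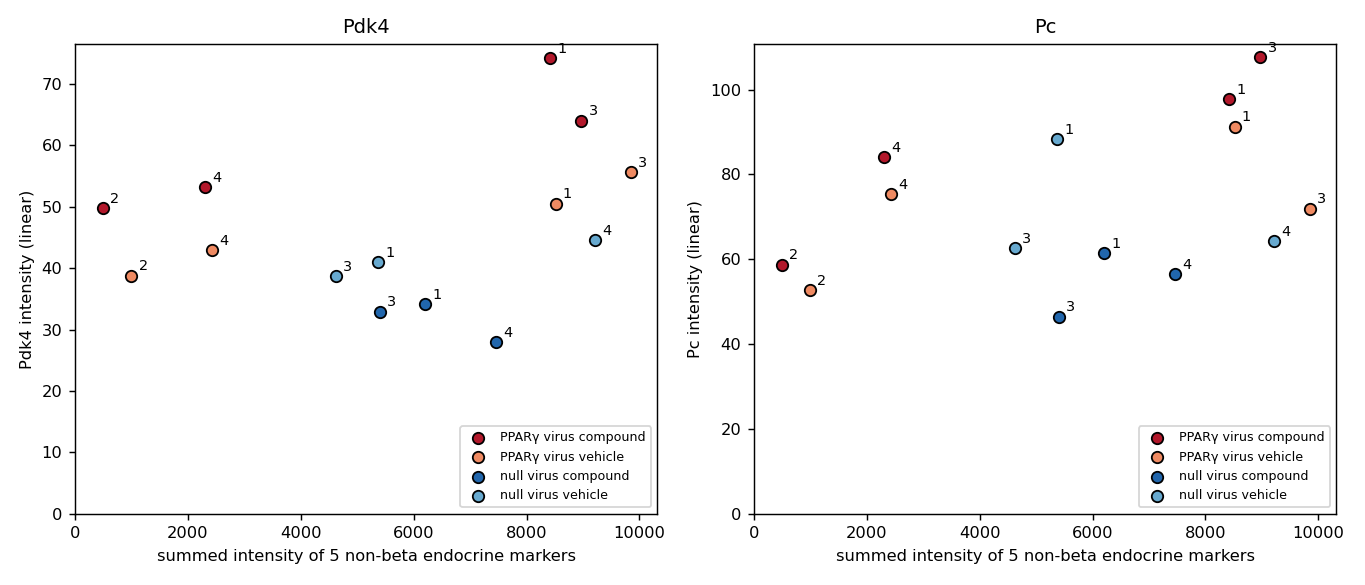
Linear intensity of Pdk4 (left) and Pc (right) against the summed intensity of 5 non-beta endocrine markers, 1 point an array, with numbers giving the replicate. PPARγ virus replicates 2 and 4 sit at sums of 497 to 2429, and within each PPARγ virus group Pdk4 is higher in replicates 1 and 3.

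Around these members, the other genes that handle pyruvate were counted in 5 lists, with 1 probe set a gene. In the virus effect in compound, 1 of 9 tested genes of the pyruvate dehydrogenase complex and its regulators was higher, Pdk4 itself, and 0 were lower. The median log2 change of that list was -0.01, beside -0.03 over all tested probe sets. Pdk3, the remaining kinase, stood at -0.06 ± 0.10, and the phosphatase genes Pdp1 and Pdp2, whose products switch the complex back on, at -0.11 ± 0.15 and -0.03 ± 0.16. The E3 subunit gene Dld stood at -0.01 ± 0.19. None of these 4 passed, and they were picked, with Mpc2 below, after their values had been seen.

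Limma called 0 of 8 genes of pyruvate supply, transport and lactate in that comparison (median 0.13) and 0 of 16 of anaplerosis and pyruvate cycling (0.10). It called 0 of 14 citrate cycle genes (-0.08) and 0 of 5 uncoupling and adenine nucleotide carrier genes (-0.11). At an unadjusted p under 0.05 these 4 lists held 2, 4, 1 and 1 genes and the pyruvate dehydrogenase list held 2, beside 9.19% of all probe sets. Slc25a12, the aspartate and glutamate carrier of the malate-aspartate shuttle, was at -0.48 ± 0.14 (adjusted p = 0.207 in limma). Pck1, the cytosolic enzyme that makes phosphoenolpyruvate from oxaloacetate, was at 1.01 ± 0.31 (adjusted p = 0.226). Its intensity was 51.6 to 128.5 in PPARγ virus islets with compound and 25.6 to 43.9 in null virus islets with compound, without overlap. The mitochondrial pyruvate carrier subunit Mpc1 was at -0.27 ± 0.12, and its partner Mpc2 at -0.07 ± 0.11. Among citrate cycle genes the smallest p belonged to Sdha, the flavoprotein subunit of succinate dehydrogenase (0.43 ± 0.19), and to Ogdh, the E1 subunit of the oxoglutarate dehydrogenase complex (-0.40 ± 0.23). Among the carriers it belonged to Ucp3, the uncoupling protein best known from muscle (-0.46 ± 0.18, limma adjusted p = 0.413), and to Slc25a14 (-0.32 ± 0.17). None of these passed. For comparison, 7 of 8 lipid genes known as PPARγ targets were higher in the same comparison, with a median of 2.11. These 8 were listed with their response in these samples already known.

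Slc16a7, which encodes the monocarboxylate transporter MCT2, a carrier of pyruvate and lactate, was the only other gene of the 5 lists to pass in any comparison. It read 59.9, 51.5, 65.6 and 56.1 in PPARγ virus islets with compound and 55.3, 35.1, 48.3 and 36.0 in those with vehicle. In null virus islets it read 31.0, 30.9 and 37.9 with compound and 29.8, 33.0 and 29.6 with vehicle. Every PPARγ virus compound array was above every null virus array. The combined effect was 1.77-fold (log2 change 0.83 ± 0.17, limma adjusted p = 0.0455), and the averaged virus effect was 0.58 ± 0.12 (limma adjusted p = 0.0313). Its virus effect in compound was 0.73 ± 0.17 (limma adjusted p = 0.088). With the replicate block within each virus as a random effect, the adjusted p was 0.0651 for the combined effect and 0.237 for the averaged virus effect.

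Slc16a7, like Pdk4, had a low signal, and it passed the filter of 39.3 in 4 of 4 PPARγ virus arrays with compound, 2 of 4 with vehicle, 0 of 3 null virus arrays with compound and 0 of 3 with vehicle. It thus entered the test through the groups where it was high, and without the filter the combined call was lost (adjusted p = 0.0568). In the fits without 1 array, the combined effect was called in 3 of 14, those without PPARγ virus vehicle replicate 1, 2 or 4 (adjusted p = 0.0338, 0.0465 and 0.0484). In the other 11 its adjusted p ran from 0.053, without PPARγ virus vehicle replicate 3, to 0.193, without null virus vehicle replicate 1. The averaged virus effect was called in 3 of 14, those without PPARγ virus vehicle replicate 2 or 4 or PPARγ virus compound replicate 2 (0.0276, 0.0302 and 0.0369). In the other 11 its adjusted p ran from 0.051, without PPARγ virus vehicle replicate 1, to 0.0781, without null virus compound replicate 1.

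**Figure D5:**
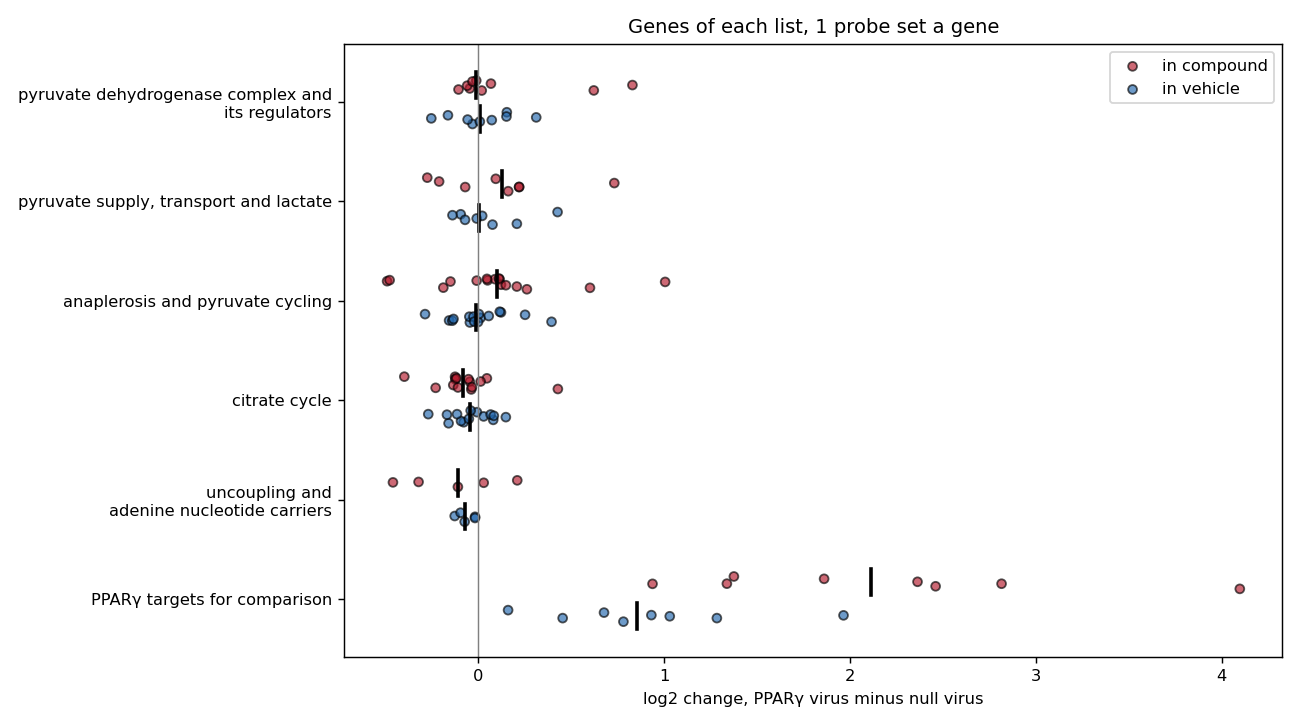
Log2 change, PPARγ virus minus null virus, of each tested gene in 5 pyruvate and uncoupling lists and in 8 PPARγ target genes, with compound (red) and vehicle (blue); black bars are list medians. The 5 pyruvate and uncoupling lists have medians between -0.11 and 0.13 with compound, against 2.11 for the PPARγ targets.

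The genes most like each member across the 14 arrays were taken as those with the highest Pearson r. For Pdk4 they were Dgat1, an enzyme that completes triglyceride synthesis (r = 0.915), Dnajb3 (0.905) and Igfbp1, an insulin-like growth factor binding protein (0.902). For Pdk1 (NM_053826) they were the peroxisome import gene Pex13 (0.914), Ubap1 (0.913) and the peroxisomal protease gene Lonp2 (0.912). For Pc they were Fbrsl1 (0.880), the monoglyceride lipase gene Mgll (0.858) and Cd24 (0.841). For Ucp2 they were Kdm2a (0.893), Arhgap1 (0.888) and Muc2 (0.858). For Pdha1 (AI411413) they were Iapp, which encodes the beta cell peptide amylin (0.943), Sdc2 (0.941) and Pja2 (0.919), and for Pdhb they were Gpr108 (0.798), Psmc5 (0.772) and Olr59 (0.759). Among the members, Pdk4 and Pc had an r of 0.768. Pdk4 had an r of 0.495 with the NM_053826 probe set of Pdk1 and of 0.677 with its AI411149 probe set. All such values are descriptions over 14 arrays that share the 4 groups, the replicate numbers and the spread in non-beta endocrine RNA.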

How the data were processed

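Total RNA of rat islets was measured on 1-colour expression arrays. The deposited table gives the authors' intensity per probe set on a linear scale. Its trimmed mean was 150.0 on each array (2% trimmed at each end), so no further normalization was applied; the software behind it is not given in the sources used here. Of 16 columns, 2 were identical and were left out, which leaves 14 arrays, and their number limits the precision. No other pair of columns had over 0.936% of equal values.

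Values were fitted as log2(intensity + 4.60) with limma 3.58.1 in R 4.3.3 (a mean per group over all 4 groups, eBayes with trend, no replicate block). The pseudocount was the 10th percentile of positive values. A probe set was tested if it exceeded 39.3, the 40th percentile of all values, in 4 or more arrays, and 57 controls were left out. That left 10078 of 15923 probe sets, 8488 of them naming 1 gene, 235 several and 1355 none. P-values were two-sided and adjusted by Benjamini-Hochberg over all of them. The fit was tested on simulated data with independent arrays, so that test does not cover the pairing of arrays described below. Gene names come from GEO's platform annotation, updated by gene identifier where the current table held it (12754 of 12789). Named genes were all members, the genes of the pathway lists that passed or had the smallest p, and the 3 genes most like each member; a list gene had the probe set with the highest mean. The members and lists were chosen with earlier results of these data known.

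Pairing by replicate number was checked by correlating how arrays depart from their group mean. Within each virus, compound and vehicle arrays of the same number had r between 0.445 and 0.702 in 7 of 7 pairs, so they pair. Across viruses r ran from -0.139 to 0.433 in 12 pairs, with 6 over 0.1. Replicate 1 had r between 0.299 and 0.433 there and replicates 3 and 4 between -0.139 and 0.128, so not every number pairs arrays across viruses. Alternatives covered the pseudocount, filter, normalization, the array with both labels, the samples fitted, blocks, the beta-actin ratio and each array left out. Promoters were read with Python 3.11.15, and figures drawn with matplotlib 3.10.9. Of 7 members 6 were in the promoter table; Pc was not.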

Additional observations from a re-analysis of the deposited data

Results flagged for a closer look

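Pdk4 and Pc stand out because their compound minus vehicle differences had opposite signs under the 2 viruses, in every same-number pair. Pdk4 was higher with compound than with vehicle in 4 of 4 PPARγ virus pairs and lower in 3 of 3 null virus pairs, a difference between viruses of 0.68 on the log2 scale. Pc did the same, with a difference of 0.59. The interaction test in limma gave an adjusted p of 1 for both genes, so neither difference passed. In the PPARγ virus groups no array stood apart from the other 3 of its group in any of 20 sets of 4 readings, by Dixon's test at the 95% level. The null virus groups, with 3 arrays each, were not examined that way.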

How the results depend on the processing

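For the virus effect in compound, the count of member probe sets called by limma was 1 (Pdk4). It was 0 without a filter on low values (Pdk4 adjusted p = 0.0512) and 0 with the groups compared alone (0.147), and for these 2 the cause was not tested. It was 0 with the filter at the 60th percentile, where Pdk4 was not tested. It was 2 (Pdk4 and Pc) with the replicate block over all groups (Pc adjusted p = 0.0166) and 2 with the summed non-beta endocrine markers as a covariate, and 0 to 1 without 1 array.

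For the virus effect averaged over vehicle and compound the count was 0. It was 1 (Pdk4) with quantile normalization, with all 16 columns, with the array of both labels kept as null virus vehicle or as null virus compound, with the beta-actin ratio as a covariate, with the non-beta marker covariate, and with both PPARγ virus groups less replicate 2 or less replicates 2 and 4. It was 2 (Pdk4 and Pc, adjusted p = 0.0128 and 0.0257) with the replicate block over all groups, and 0 to 1 without 1 array. Replicate 2 had no null virus array in that block fit. Its effects, 0.57 for Pdk4 and 0.46 for Pc, were the same as with both PPARγ virus groups less replicate 2. The 2 fits are therefore not separate evidence. The cause of the changes in count was not tested. Within each virus every replicate number paired its arrays, while across viruses not every number did. A block within each virus changed no member call. As a random effect, it moved the adjusted p of the averaged virus effect in limma from 0.0621 to 0.362 for Pdk4. For Pdk1 (NM_053826) it moved from 0.107 to 0.423.

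Slc16a7 lost its combined call without a filter (adjusted p = 0.0568), with the array of both labels as null virus compound (0.0534), with the groups compared alone (0.0865), with the beta-actin covariate (0.0515) and with both PPARγ virus groups less replicate 2 (0.0562) or less replicates 2 and 4 (0.0533).

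In the other 6 comparisons the count stayed 0 under every alternative run. Of 1840 alternative values of 64 member results, 1702 kept their sign; 138 changed it with neither value called, all of main size up to 0.11, and 0 called values reversed. The covariate and the 2 fits without PPARγ virus replicates were chosen after seeing the data. Pdk4 and Slc16a7 lie near the filter, which limits both calls, and Pdk2 lies under it.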
